A study of Homo sapiens with 12 samples.

Results

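The response of a SNAI1-site edited A549 line to transforming growth factor β (TGFβ) was described here from the 6 RNA-seq libraries of that line, out of 12 libraries in the study. A549 is an established human lung adenocarcinoma epithelial cell line. In the edited derivative, the site through which the microRNA miR-22 acts on SNAI1 had been knocked out, a change carried by the untreated and the treated libraries alike. The 3 untreated libraries were set against 3 libraries of cells given TGFβ at 10 ng/mL in complete medium, and both groups were taken at day 5. The other 6 libraries came from wild type A549 under the same 2 conditions and were used to estimate the spread and to test where the responses of the lines differed. The labels call the 3 libraries of a group biological repeats, so p-values measure the spread between such repeats. The labels name 1 edited derivative, so effects of the edit and of deriving that line cannot be told apart. Genes were included when at least 3 of the 12 libraries had a normalized count of at least 10, which 20456 of 58830 entries did. A normalized count here is the number of reads assigned to a gene, scaled by the submitters to make libraries comparable. The 6 libraries held 84210775 to 111141708 reads assigned to genes, and no library stood apart: correlations of log2 values (genes with a mean of at least 100) were 0.995 to 0.997 within a group and 0.858 to 0.864 between the groups.

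TGFβ is a secreted ligand that binds a pair of receptor kinases, which phosphorylate SMAD2 and SMAD3. These join SMAD4, enter the nucleus and act on target genes, among them genes whose products dampen the signal. In epithelial cells the pathway is known as an inducer of epithelial-mesenchymal transition (EMT), in which junction proteins are lost and cytoskeletal, migratory and matrix genes are gained. SNAI1 encodes a zinc-finger repressor of epithelial genes such as CDH1, and microRNAs such as miR-22 lower the output of mRNAs that pair with their seed, the bases near the 5′ end of the microRNA.

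The sequences of the edited link are shown because they define the line. The mature microRNA (RefSeq, GRCh38.p14, chr17:1713914-1713935, minus strand) has its seed, bases 2 to 8, in capitals. The SNAI1 transcript of GENCODE 29 held 2 stretches of 7 bases complementary to that seed, both in the 3′ UTR in its last exon, at chr20:49988284-49988290 and chr20:49988578-49988584 on the plus strand of GRCh38, shown in capitals inside 22 bases of reference sequence. The sources used here do not say which stretch was edited or what the edited sequence is.
miR-22-3p: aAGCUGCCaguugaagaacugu
SNAI1 match 1: ttctgtggagggagGGCAGCTg
SNAI1 match 2: atgccccgagcccaGGCAGCTa

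SNAI1 mRNA itself (chr20:49982980-49988886) had normalized counts of 513, 499 and 432 without TGFβ and 1406, 1214 and 1318 with it. All 3 treated libraries lay above the untreated ones, a log2 fold change of 1.45 ± 0.13. Here and below, ± after a log2 fold change is its standard error from limma, a linear model fitted to log2(normalized count + 1) over all tested genes and all 12 libraries, with p-values adjusted by the method of Benjamini and Hochberg over the 20456 genes (adjusted p = 4.9e-08 for SNAI1). A gene is said to have risen or fallen where this adjusted p lay under 0.05, and each log2 fold change is on the log2(normalized count + 1) scale, which understates the change of genes with low counts. MIR22HG (chr17:1711504-1716210), the host transcript from which miR-22 is processed, rose from 2543, 2994 and 2768 to 4675, 4965 and 4181 (log2 fold change 0.73 ± 0.08, adjusted p = 1.02e-06). Mature miR-22 was not analysed here, and reads on SNAI1 do not test the edit.

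Most tested genes moved. Of the 20456 genes, 62.8% passed the test, 6559 (32.1%) of them higher and 6283 (30.7%) lower with TGFβ. Among them 3194 genes (15.6%) were at least 2-fold higher and 2195 (10.7%) at least 2-fold lower. At 16-fold or more, 373 genes (1.82%) were higher and 156 (0.763%) lower. The 3 treated libraries lay above all 3 untreated ones for 35% of genes and below them for 34.2%. The median log2 fold change over all tested genes was 0.03, and the middle 90% of genes ran from -1.74 to 2.47. A count of called genes in any list below has to be read against these shares. The lists and their members were chosen with earlier results of these data known, which also limits any comparison with all genes.

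**Figure D1:**
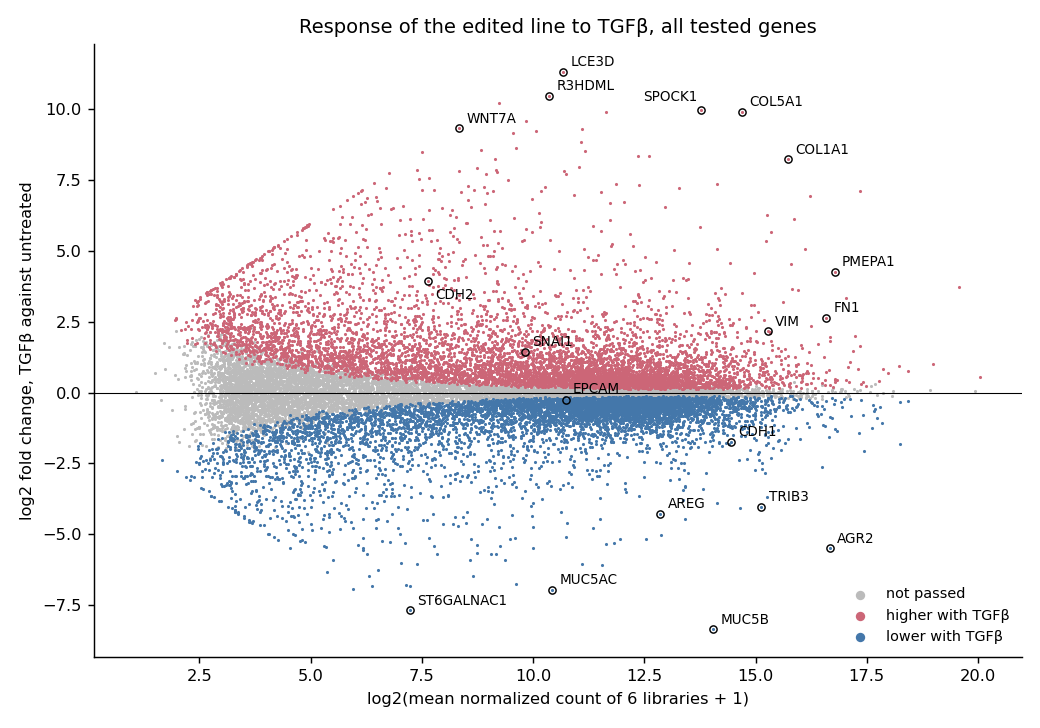
Each point is 1 of the 20456 tested genes in the edited line, plotted by its mean level over 6 libraries (log2 of normalized count + 1) and its log2 fold change with TGFβ. Red and blue points passed the test, grey points did not, and circles mark genes described in the text, from LCE3D at 11.32 to MUC5B at -8.34.

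The 4 genes that mark the response in this line, SPOCK1, COL5A1, CDH1 and MUC5B, were separated completely between the groups. SPOCK1 (chr5:136975298-137499326), which encodes a secreted proteoglycan of the matrix, had counts of 40.2, 18.2 and 26.2 untreated and 28096, 26892 and 28522 with TGFβ (log2 fold change 9.97 ± 0.24, adjusted p = 5.37e-15). COL5A1 (chr9:134641803-134844843), a chain of type V collagen, went from 42.3, 59 and 61.3 to 50992, 56084 and 51380.0 (log2 fold change 9.92 ± 0.14, adjusted p = 7.17e-18). MUC5B (chr11:1223066-1262172), a gel-forming mucin of airway mucus, fell from 36579, 30523 and 34381 to 97.1, 96.9 and 116 (log2 fold change -8.34 ± 0.13, adjusted p = 2.97e-17). CDH1 (chr16:68737292-68835537), the E-cadherin of adherens junctions, fell from 35810.3, 32369 and 34093 to 10647, 10227 and 9981 (log2 fold change -1.73 ± 0.06, adjusted p = 3.94e-13). The treated libraries of both repressed genes lay below every untreated library, with a far smaller fold for CDH1. In bulk RNA, fewer cells expressing a gene and less RNA per cell cannot be told apart.

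The labelled cell type was checked on epithelial markers. KRT8 and KRT18, the keratin pair of simple epithelia, were expressed in both groups, KRT8 at 348267, 351081 and 339384 untreated and 293673, 253029 and 279269 with TGFβ, and KRT18 at 185225, 189069 and 181413 and 163483, 142050.0 and 157805. Both fell (log2 fold changes -0.33 ± 0.09 and -0.26 ± 0.10), for KRT18 a call that ended without replicate 1 of the untreated edited group (adjusted p = 0.0578), replicate 2 of the untreated edited group (adjusted p = 0.0743) or replicate 2 of the treated edited group (adjusted p = 0.109). KRT7 rose (0.52 ± 0.07), and KRT19 was low in both groups (112, 142 and 103 untreated, 113, 32.3 and 22.8 treated). KRT19 fell, though its groups overlapped, a call that ended without replicate 3 of the treated edited group (adjusted p = 0.0534). The epithelial adhesion gene EPCAM was at 1872, 1843 and 1841 untreated and 1679, 1369 and 1634 treated. Its groups did not overlap, and its log2 fold change of -0.25 ± 0.09 passed the test (adjusted p = 0.0211), a call that ended without replicate 1 of the untreated edited group (adjusted p = 0.0557) or replicate 2 of the treated edited group (adjusted p = 0.124).

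**Figure D2:**
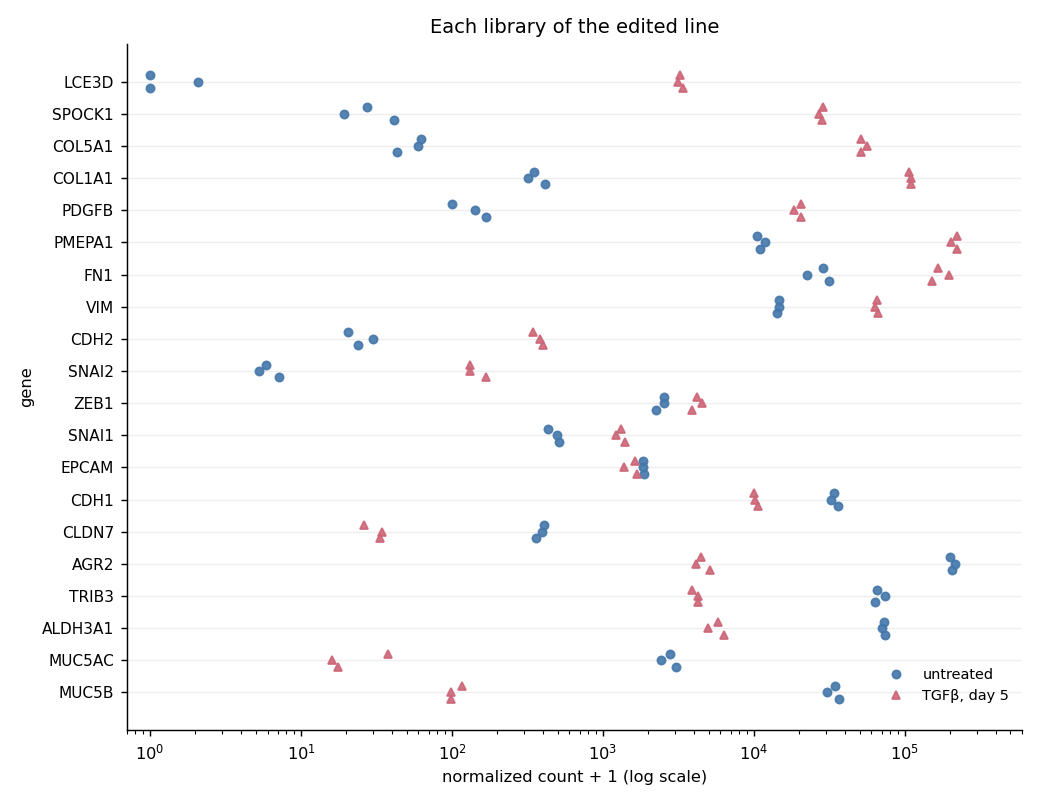
Normalized counts plus 1 (log scale) of 20 genes in each library of the edited line, with circles for the 3 untreated and triangles for the 3 TGFβ-treated libraries. Triangles lie right of the circles from LCE3D to SNAI1 and left of them from EPCAM to MUC5B, with the narrowest gap for EPCAM.

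Genes of the TGFβ pathway itself moved in both directions. Of the 26 tested genes for ligands, receptors and activators (of 27 listed), 13 rose and 7 fell, and the list took 0.11% to 0.114% of all counts in the untreated libraries and 0.285% to 0.306% in the treated ones. The receptor kinase gene TGFBR1 rose from 8933, 9426 and 10423 to 110900.0, 114928 and 125756 (log2 fold change 3.61 ± 0.07). LTBP2 and LTBP3, which encode proteins that hold latent TGFβ in the matrix, rose by 4.61 ± 0.08 and 3.68 ± 0.05. INHBB, the activin B subunit, fell from 5364, 5758 and 5456 to 265, 253 and 238 (-4.45 ± 0.07), the coreceptor gene TGFBR3 fell (-1.88 ± 0.13), and so did the stress-responsive ligand gene GDF15 (-2.84 ± 0.08). Treated and untreated libraries did not overlap for any of the genes named here, which were named for large changes. Among all tested genes, 35% had every treated library above the untreated ones and 34.2% had every one below.

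Among 23 SMADs and feedback genes, 17 rose and 4 fell. PMEPA1, a membrane protein that restrains SMAD signalling, rose from 10952, 11798 and 10429 to 219866, 200474 and 219837 (4.27 ± 0.06), and the BMP antagonist NOG rose from 54.7, 26.8 and 47.4 to 933, 752 and 1018 (4.41 ± 0.28). LDLRAD4, another inhibitor of the pathway, rose by 2.36 ± 0.11. The signal-carrying SMAD2 fell from 37045, 38828 and 38555 to 17034, 17030.3 and 17568 (-1.15 ± 0.05), and the BMP-class SMAD9 and SMAD1 fell as well (-2.07 ± 0.12 and -0.39 ± 0.09).

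Of 24 direct SMAD response genes, 19 rose, 17 of them at least 2-fold, and 2 fell. Their median log2 fold change was 2.06, against 0.03 over all genes. Together they made up 0.376% to 0.382% of all counts untreated and 2.81% to 2.96% with TGFβ, a ratio of means of 7.65. This ratio is weighted to the most abundant members and does not speak for each gene. PDGFB, a growth factor for mesenchymal cells, rose from 168, 142 and 98.9 to 20567, 18362 and 20497 (7.21 ± 0.14), and ANGPTL4, a secreted inhibitor of lipoprotein lipase, by 5.08 ± 0.11. The matricellular gene CTGF went from 7714, 9310.2 and 8637 to 111681, 102111 and 109877 (3.66 ± 0.07). The 2 members that fell were ID2 (-1.26 ± 0.09) and ID1 (-0.29 ± 0.10), inhibitors of helix-loop-helix factors. For ID1 this was a call that ended without replicate 1 of the untreated edited group (adjusted p = 0.0595), replicate 3 of the untreated edited group (adjusted p = 0.0625) or replicate 2 of the treated edited group (adjusted p = 0.105). ID3 did not pass (-0.12 ± 0.09, adjusted p = 0.293), with counts of 27028, 30626 and 28431 untreated and 29155, 23182 and 27357 treated that overlapped.

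A shift in the most abundant mRNAs accompanied these changes. TGFBI, a matrix protein gene named for its induction by TGFβ and singled out here after its values were seen, took 0.127%, 0.121% and 0.12% of all counts in the untreated libraries and 1.57%, 1.46% and 1.55% in the treated ones, where it ranked 1 of all entries by share of counts, a measure not corrected for gene length. It rose from 113271, 109580.0 and 109041 to 1507430.0, 1346090.0 and 1492800.0 (3.71 ± 0.07).

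A pair of promoters is shown to set the letters known from SMAD binding beside members that moved in opposite directions. ANGPTL4 rose, and GJB1, a gap junction gene described below, fell. The 250 bases before the RefSeq start (GRCh38.p14, read in the direction of the gene) are given, chr19:8363905-8364154 on the plus strand and chrX:71214989-71215238 on the plus strand. Capitals mark CAGAC or its reverse complement GTCTG, the core of SMAD sites.
ANGPTL4: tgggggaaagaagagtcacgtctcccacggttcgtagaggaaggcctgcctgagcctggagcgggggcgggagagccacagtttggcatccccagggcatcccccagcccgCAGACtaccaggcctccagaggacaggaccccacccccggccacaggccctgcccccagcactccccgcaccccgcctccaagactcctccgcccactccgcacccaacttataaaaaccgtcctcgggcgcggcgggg
GJB1: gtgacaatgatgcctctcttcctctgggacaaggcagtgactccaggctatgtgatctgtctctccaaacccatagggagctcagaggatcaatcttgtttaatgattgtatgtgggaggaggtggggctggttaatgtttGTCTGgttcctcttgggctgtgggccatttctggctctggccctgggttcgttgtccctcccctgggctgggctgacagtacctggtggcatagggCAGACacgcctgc

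The gene that rose held 1 such stretch and the gene that fell held 2. Over all 35116 RefSeq windows of that length, 38.0% held CAGAC or GTCTG, against 39.4% of the 2817 windows of genes at least 2-fold higher and 36.9% of the 1622 windows of genes at least 2-fold lower in the edited line. CAGGTG or its reverse complement CACCTG, the E-box letters known from SNAI1 binding, stood in 17.5% of all windows, 17.5% of windows of the higher genes and 17.4% of windows of the lower genes. Both motifs were searched on both strands and do not overlap each other in letters. A match is a description of the letters only.

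EMT transcription factors rose in 15 of 26 tested members and fell in 6 (30 listed). SNAI2 (Slug) went from 6.19, 4.29 and 4.9 to 166, 131 and 129.7 (4.55 ± 0.37, adjusted p = 1.64e-08) and ZEB1 from 2260.4, 2538 and 2552 to 3890.0, 4548 and 4200.0 (0.78 ± 0.10, adjusted p = 6.57e-06). Among members with a mean of at least 100, the largest increases were in RUNX2 (4.38 ± 0.32), RUNX1 (2.53 ± 0.10) and SOX4 (2.52 ± 0.06), the last from 5033, 5264 and 5707 to 29891, 29646 and 31968. The epithelial ETS factors EHF and ELF3 fell (-3.27 ± 0.12 and -1.49 ± 0.06), EHF from 3097, 2708 and 3001 to 316, 298 and 296, and the forkhead gene FOXC1 fell as well (-1.81 ± 0.07).

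Mesenchymal and contractile genes rose in 21 of 25 members, 19 of them at least 2-fold, and fell in 2. The intermediate filament gene VIM rose from 14209, 14565 and 14583 to 66404, 62939.7 and 64972 (2.16 ± 0.09, adjusted p = 2.6e-12). CDH2, the N-cadherin, rose from 22.7, 29 and 19.6 to 402, 382 and 341 (3.94 ± 0.26), and the mesenchymal cadherin CDH11 from 671, 751 and 784 to 11689, 11982 and 12565 (4.04 ± 0.08). The matricellular gene SPARC was nearly absent before treatment at 9.29, 16.1 and 16.3 and reached 3293, 3662 and 2935 (7.82 ± 0.30). The 2 that fell were SYNPO2, an actin-binding protein gene (-1.28 ± 0.11), and MYLK, the myosin light chain kinase (-0.53 ± 0.09).

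Markers of other cell types were read beside these genes and the matrix genes that follow. Of 10 fibroblast markers 7 were tested, 6 rose and 1 fell, and their summed normalized counts were 212 to 319 untreated and 1838 to 2221 treated. LUM and PDGFRA, a matrix proteoglycan and a growth factor receptor, made up most of the treated sum (1369.7, 1091 and 1408 and 417, 387 and 421 in the treated libraries), and THY1 and FAP rose too (2.78 ± 0.31 and 4.82 ± 0.61). The fibroblast marker DPT was at 0 in every library untreated and 6.26, 5.38 and 2.28 treated, and DCN at 2.06, 5.36 and 3.27 and 2.09, 6.46 and 18.2. TCF21 fell (-1.35 ± 0.55), a call that ended without replicate 1 of the untreated wild type group (adjusted p = 0.0537), replicate 2 of the untreated wild type group (adjusted p = 0.0514), replicate 1 of the untreated edited group (adjusted p = 0.167), replicate 3 of the untreated edited group (adjusted p = 0.0938), replicate 2 of the treated edited group (adjusted p = 0.0757) or replicate 3 of the treated edited group (adjusted p = 0.165). Of 10 endothelial markers 5 were tested, 3 rose and 2 fell, and they summed to 1137 to 1295 untreated and 2548 to 3025 treated. EGFL7 was the largest part untreated, and ESAM rose from 20.6, 21.5 and 18 to 1647, 1342 and 1535 (6.16 ± 0.15). PECAM1, another endothelial marker, fell from 161, 110.5 and 139.8 to 6.26, 2.15 and 9.1 (-4.47 ± 0.52), and KDR was at 0 in all 6 libraries. Of 10 leukocyte markers 6 were tested, 1 rose and 3 fell, and they summed to 341 to 367 untreated and 278 to 340.3 treated. ITGAM was the largest part, at 177, 205 and 224 untreated and 214, 263 and 196 treated, and CD3E was at 0 throughout. Smooth muscle and pericyte markers rose in 3 and fell in 3 of 7 tested members and summed to 7069.6 to 7673 and 8144 to 8405. SMTN rose from 1289, 1423 and 1364 to 5167, 5022 and 4934 (1.89 ± 0.07) and MCAM from 154, 188 and 162 to 555, 505 and 589 (1.71 ± 0.15), while NOTCH3 fell from 5425, 4674 and 5428 to 2244, 2185 and 2255 (-1.21 ± 0.08), with ACTG2 at 0 in all 6 libraries and MYH11 at 31, 22.5 and 22.1 untreated and 16.7, 23.7 and 22.8 treated (-0.25 ± 0.37, adjusted p = 0.582). THY1, FAP, TCF21, PECAM1 and DCN were singled out here after their values were seen. The part of other cell types in the results was not tested beyond these values.

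Collagens rose in 19 of 25 tested members (28 listed), 17 of them at least 2-fold, and fell in 2. They took 0.0545% to 0.0603% of all counts untreated and 0.568% to 0.632% with TGFβ, a ratio of means of 10.3. With 3 libraries against 3, an exact permutation test of such a share cannot give a two-sided p below 0.1, which was reached here. COL1A1, a chain of type I collagen, rose from 409.6, 319.6 and 351 to 109512, 109609 and 105624 (8.24 ± 0.09, adjusted p = 3.04e-19), and COL22A1 from 26.8, 41.8 and 27.8 to 10046, 10844 and 10697 (8.34 ± 0.59). The type V chain COL5A3 fell from 669.6, 727 and 804 to 104, 90.4 and 83 (-2.97 ± 0.15), opposite to COL5A1, and COL4A6 fell from 452, 499 and 479 to 336, 341 and 405 (-0.40 ± 0.13), a call that ended without replicate 1 of the treated edited group (adjusted p = 0.0526).

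Genes for collagen processing and crosslinking rose in 17 of 27 and fell in 5. The crosslinking enzymes LOX and LOXL2 rose from 115, 106 and 175 to 4382, 4284 and 4448 (5.08 ± 0.16) and from 623, 432 and 522 to 10407, 10321 and 10400.0 (4.32 ± 0.09), and the prolyl hydroxylase subunit P4HA3 rose by 3.97 ± 0.08. The members that fell most (mean of at least 100) were the transcription factor CREB3L1 (-2.84 ± 0.22), the COPII coat subunit SEC24D (-1.53 ± 0.07), from 12393, 12914 and 12555 to 4258, 4321 and 4561, and the disulfide isomerase P4HB (-0.57 ± 0.06). The collagen chaperone SERPINH1 did not pass (-0.04 ± 0.08, adjusted p = 0.718).

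Glycoproteins and proteoglycans of the matrix rose in 26 of 34 members and fell in 3. Their summed level was 0.274% to 0.296% of all counts untreated and 2.01% to 2.08% with TGFβ. Such a sum is weighted to abundant genes and does not speak for each member. The matrix protein gene TGFBI alone took 1.57%, 1.46% and 1.55% of all counts in the treated libraries. FN1, the fibronectin, rose from 31243, 22374 and 28450.2 to 150515, 195166 and 165362 (2.64 ± 0.14, adjusted p = 1.25e-10). THBS1 (thrombospondin-1, an activator of latent TGFβ) rose from 5248, 4339 and 4746 to 107035, 111719 and 110090.0 (4.52 ± 0.08) and the heparan sulfate proteoglycan GPC4 from 45.4, 61.1 and 57.2 to 1321, 1231 and 1241 (4.52 ± 0.13).

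Metalloproteases, the plasminogen system and their inhibitors rose in 23 of 29 members, 21 of them at least 2-fold, with a median log2 fold change of 2.37. The gelatinase MMP2 rose from 9.29, 10.7 and 15.5 to 5015, 4375 and 4454 (8.52 ± 0.38), and ADAM19, a membrane-bound sheddase, from 211, 221 and 227 to 37412, 34053 and 36357 (7.35 ± 0.07, adjusted p = 1.96e-19). The membrane-bound collagenase MMP14 did not pass (-0.13 ± 0.13, adjusted p = 0.395), with 671, 674 and 579 untreated and 512, 704 and 554 treated. MMP24 fell from 11874, 12722 and 12276 to 4726, 4153 and 4458 (-1.47 ± 0.06).

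Integrins and laminins rose in 18 of 27 and fell in 6. ITGA11, a subunit of a collagen receptor, rose from 40.2, 29 and 43.3 to 12505, 12188 and 12462 (8.35 ± 0.22) and ITGB3 from 16.5, 24.7 and 21.3 to 524, 475 and 603 (4.63 ± 0.27). The basement membrane genes NID2, LAMA3 and LAMA5 fell (-1.46 ± 0.18, -0.52 ± 0.10 and -0.41 ± 0.11).

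**Figure D3:**
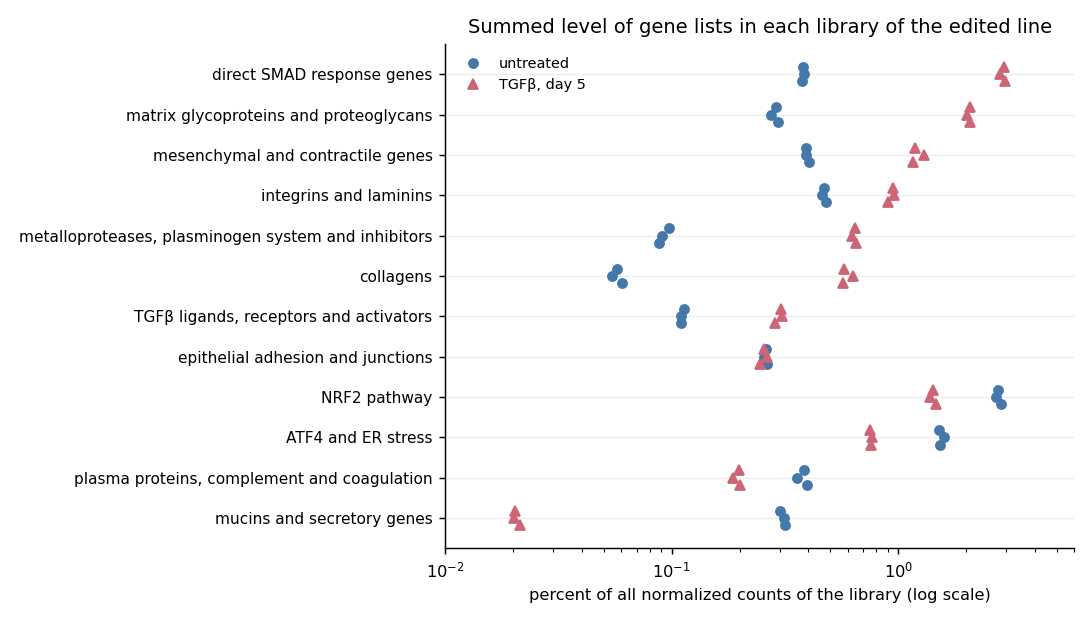
Summed normalized counts of 12 gene lists as a percent of all counts in each of the 6 libraries of the edited line (log scale; circles untreated, triangles TGFβ). Matrix, protease and SMAD response lists shift right with TGFβ, mucins and secretory genes shift furthest left, and epithelial junction genes stay in place.

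Epithelial adhesion and junction genes did not move as a block. Of 34 tested members (35 listed), 15 fell and 12 rose, and the summed level was 0.256% to 0.262% untreated and 0.246% to 0.263% treated, ranges that overlap. TJP3, a tight junction scaffold, fell from 5005, 4872 and 5308 to 199, 187 and 159 (-4.80 ± 0.12), the claudin CLDN7 from 360.1, 392 and 405 to 32.4, 33.4 and 25 (-3.64 ± 0.23), and the connexin GJB1 from 274, 236 and 251 to 10.4, 4.31 and 0 (-6.02 ± 0.73). Others rose: the nectin gene PVRL4 from 237, 224 and 257 to 2357, 1923 and 2032 (3.13 ± 0.12), CLDN4 from 269, 196 and 193 to 1721, 1390.1 and 1496 (2.81 ± 0.14) and GJB2 from 175, 167 and 178 to 722, 594 and 677 (1.93 ± 0.13). The 2 claudins and the 2 connexins named here went opposite ways. They were named for the largest changes in each direction, so this does not describe their families.

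Keratins rose in 6 of 14 and fell in 8. KRT81, a hair-type keratin at 287059, 289908 and 277441 untreated, fell to 164765, 137279 and 153912 (-0.91 ± 0.09), and KRT4 fell from 841, 783 and 885 to 25.1, 26.9 and 10.2 (-5.38 ± 0.27). Among splicing regulators with known roles in EMT, 4 of 12 rose, 6 fell, and 3 of those that fell did so at least 2-fold. The epithelial regulator ESRP1 fell from 356, 385 and 381 to 134, 86.1 and 110.3 (-1.78 ± 0.19), RBM47 fell as well (-1.35 ± 0.06), and the mesenchymal-type regulator RBFOX2 rose by 0.95 ± 0.07.

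Secretory genes showed the deepest loss. Of 22 tested mucins and secretory genes (29 listed), 15 fell, each of these at least 2-fold, and 2 rose. The median log2 fold change of the tested members was -2.95. Their summed level was 0.301% to 0.315% of all counts untreated and 0.02% to 0.0213% with TGFβ, a ratio of 0.0663. Most of the untreated sum was AGR2, which alone took 0.227%, 0.236% and 0.218% of all counts there, so the ratio largely follows that gene. AGR2, a disulfide isomerase of mucus-producing cells, fell from 203412, 213128 and 197573 to 5100.0, 4148 and 4472 (-5.49 ± 0.09, adjusted p = 1.14e-16), and the mucin MUC5AC from 3033, 2432 and 2762 to 16.7, 15.1 and 36.4 (-6.96 ± 0.28). ST6GALNAC1, which adds sialic acid to mucin-type glycans, went from 327, 264 and 307 to 2.09, 0 and 0. That is 939 reads against 2, a ratio of 416 with a 95% counting interval of 115 to 3436 (exact binomial; counting error only). FCGBP, a mucus-associated protein, fell from 1281, 935 and 1144 to 27.1, 12.9 and 23.9 (-5.70 ± 0.24). The 2 that rose were MUC3A (0.80 ± 0.11) and the lineage factor FOXA1 (0.81 ± 0.06), from 3563, 3249 and 3329 to 5829, 5997 and 5970.2.

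Genes for plasma proteins, complement and coagulation, several of them known from liver, fell in 19 of 30 tested members and rose in 7. The coagulation factor F7 fell from 1417, 1408 and 1372 to 32.4, 45.2 and 38.7 (-5.15 ± 0.17), vitronectin (VTN) from 3292, 3406 and 3239 to 123, 138 and 151 (-4.59 ± 0.11), and AHSG (fetuin-A) from 337, 229.5 and 329 to 0, 4.31 and 2.28 (-6.83 ± 0.53). C4BPA, the α chain of a complement inhibitor, fell (-5.90 ± 0.29), while C4BPB, its β chain, rose from 75.3, 24.7 and 47.4 to 432, 374 and 488 (3.24 ± 0.28). Tissue factor (F3) and the complement regulator CD59 also rose (2.85 ± 0.09 and 2.85 ± 0.07), and CFI did not pass (-0.07 ± 0.07, adjusted p = 0.39). Other deep losses were in SLC51B, a subunit of a bile acid transporter (-6.09 ± 0.15), MYO1A, a brush border myosin (-6.05 ± 0.17), and the antisense RNA DSCAM-AS1 (-6.75 ± 0.67), for which the sources used here do not say whether the counting used strand.

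**Figure D4:**
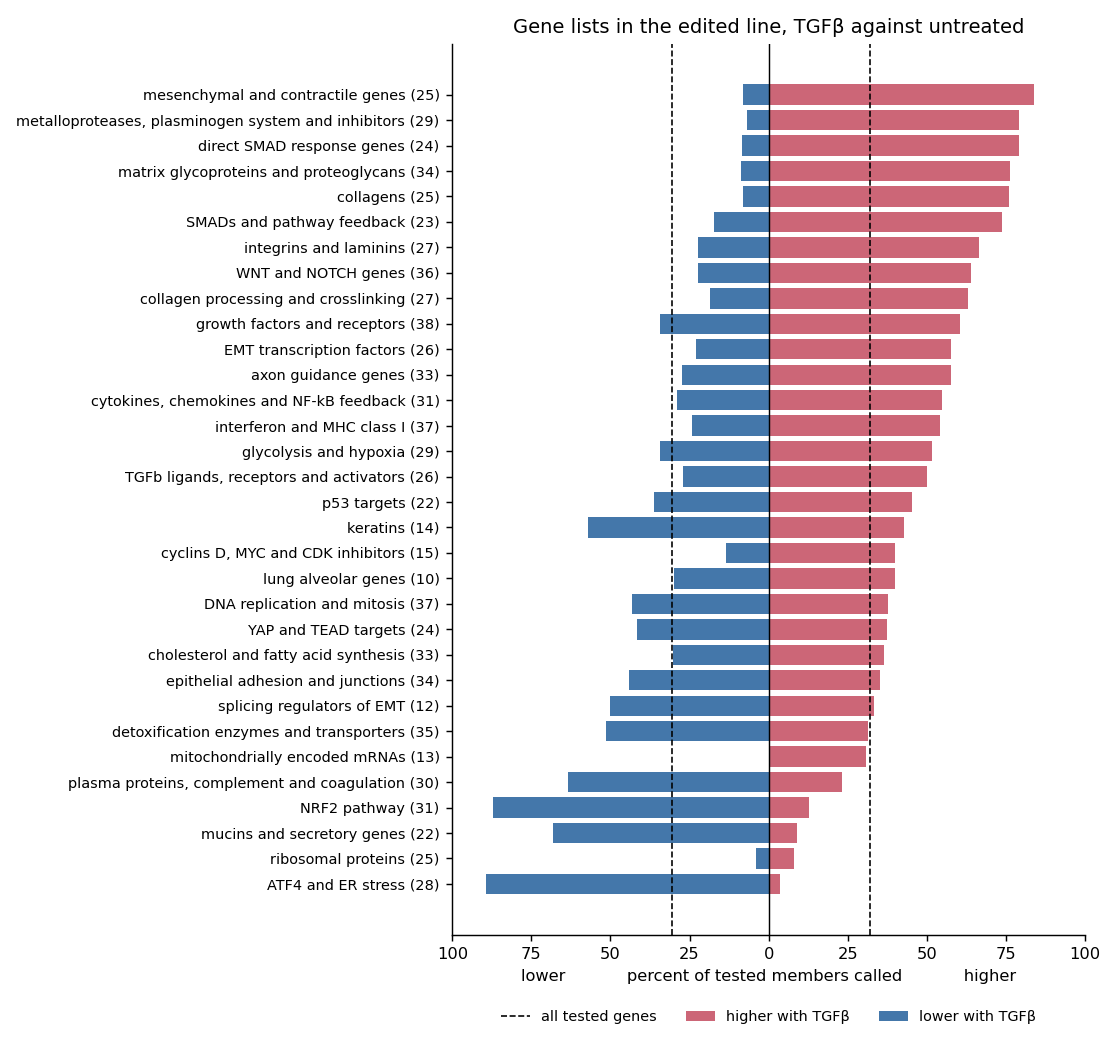
For each of 32 gene lists, bars give the percent of tested members (number in brackets) called higher (right) or lower (left) with TGFβ in the edited line. Dashed lines mark the same for all 20456 tested genes, 32.1% higher and 30.7% lower. Mesenchymal, protease and SMAD response lists reach furthest right, and ATF4, NRF2 and mucin lists furthest left.

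A set of genes appeared from near absence. In 64 entries every untreated library was under 10 and every treated library at 100 or more, and in 19 entries the reverse held. For wild type these counts were 66 and 25, with 38 and 8 entries common to both lines. Those 38 are 59.4% of the 64 and 57.6% of the 66, and those 8 are 42.1% of the 19 and 32.0% of the 25. LCE3D and LCE3E, late cornified envelope genes known from skin, stood out: LCE3E had 0 reads in all 3 untreated libraries and 1284, 1182 and 1134 normalized counts with TGFβ, at least 1250-fold higher against a floor of 3 reads over the group. LCE3D had 1 read in the untreated group against 9019, or 3409.7, 3115 and 3254 normalized counts, and its log2 fold change of 11.32 ± 0.29 became 8.30 with a pseudocount of 10. WNT7A, a Wnt ligand, also went from 0 reads to 649, 622 and 670.0, at least 674-fold higher.

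The insulin-like family members IGFL1, IGFL2 and IGFL3 rose together, IGFL1 from 10.3, 3.22 and 4.9 to 6642, 6081 and 6283 (9.92 ± 0.27), IGFL2 from 2.06, 0 and 3.27 to 1818, 1961 and 1673 (9.59 ± 0.46) and IGFL3 from 0, 3.22 and 3.27 to 1587, 1348 and 1551 (9.15 ± 0.48). The IGFL and LCE3 genes are families of similar sequence, and no source used here gives how reads shared by their members were counted. R3HDML had 3 reads untreated against 7283 (2661, 2385 and 2866 normalized counts). SLN, a regulator of the calcium pump of muscle, rose from 4.13, 4.29 and 11.4 to 4719, 3888 and 4486 (9.29 ± 0.76), the Rac activator DOCK2 from 4.13, 2.15 and 1.63 to 1877, 2379 and 2129.6 (9.25 ± 0.32) and the actin-binding coronin CORO2B from 8.25, 10.7 and 6.54 to 4621, 3858 and 4474 (8.85 ± 0.21).

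Signals to other cells moved both ways. Growth factors and receptors rose in 23 and fell in 13 of 38. FGF1 rose from 6.19, 12.9 and 3.27 to 1433, 1288 and 1405 (7.51 ± 0.39). The EGF receptor ligands AREG and EREG fell from 13193, 16016 and 13288 to 734, 656 and 792 (-4.28 ± 0.09) and from 29229, 37299 and 33797 to 2044, 2300.0 and 2388 (-3.89 ± 0.09), and HGF, the ligand of MET, from 5871, 5865 and 6995 to 147, 181 and 135 (-5.33 ± 0.12). WNT and NOTCH genes rose in 23 and fell in 8 of 36 (5 without replicate 1 of the untreated or replicate 2 of the treated group), with WNT5B (5.69 ± 0.26) and WNT9A (4.91 ± 0.35) higher beside WNT7A, and the antagonists DKK1 (-2.17 ± 0.09) and RNF43 (-1.65 ± 0.06) lower. Axon guidance genes rose in 19 and fell in 9 of 33: the ephrin receptor EPHB2 rose from 1617, 1959 and 1787 to 43567, 39682 and 43364 (4.56 ± 0.07), the semaphorin SEMA7A rose by 6.01 ± 0.29, and the netrin receptor UNC5B fell (-3.50 ± 0.20).

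Cytokine and NF-kB genes rose in 17 and fell in 9 of 31. The monocyte chemokine CCL2 rose from 473, 483 and 481 to 28174, 25398 and 28323 (5.83 ± 0.10), IL1A from 25.8, 5.36 and 7.36 to 648, 782 and 686 (5.97 ± 0.37) and IL6 from 33, 29 and 13.1 to 233, 248 and 231 (3.29 ± 0.29). The chemokines CXCL5, CXCL16 and CCL20 fell (-1.77 ± 0.10, -1.74 ± 0.08 and -1.04 ± 0.13). Interferon and MHC class I genes rose in 20 and fell in 9 of 37. The checkpoint ligand CD274 (PD-L1) rose from 155, 148 and 143 to 600.3, 576 and 680.3 (2.05 ± 0.12) and the peptide-loading gene TAPBP by 1.42 ± 0.07, whereas OAS1 and IFITM2 fell (-1.18 ± 0.10 and -1.15 ± 0.11).

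Most genes of 2 stress pathways fell. NRF2 is the transcription factor of the oxidative stress response. Genes of its pathway fell in 27 of 31 members and rose in 4, and their summed level was 2.7% to 2.83% of all counts untreated and 1.37% to 1.48% with TGFβ. ALDH3A1 fell from 74276, 70081 and 72702 to 6316, 4934 and 5762 (-3.68 ± 0.11), GPX2 and OSGIN1 fell too (-2.37 ± 0.13 and -2.48 ± 0.08), while the heme oxygenase gene HMOX1 rose from 3726, 3280.0 and 3547 to 14516, 12344 and 13511 (1.93 ± 0.09). Genes of the ATF4 and endoplasmic reticulum stress responses fell in 25 of 28 and rose in 1, and their summed level was 1.51% to 1.59% untreated and 0.749% to 0.768% with TGFβ. TRIB3, a pseudokinase induced by ATF4, fell from 63682, 73904 and 65422 to 4250.1, 4281 and 3870.1 (-4.03 ± 0.08), STC2 from 18609, 20646 and 18625 to 1518, 2414 and 1480.0 (-3.45 ± 0.14) and the cysteine synthesis gene CTH from 6044, 5448 and 6015 to 589, 545 and 730.3 (-3.24 ± 0.09). The member that rose was the lipoprotein receptor gene VLDLR (0.61 ± 0.06).

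Growth-related lists were split. DNA replication and mitosis genes rose in 14 and fell in 16 of 37, with a median log2 fold change of -0.00156. Over all tested genes 32.1% rose and 30.7% fell. The S-phase cyclins CCNE1 and CCNE2 rose from 302, 311 and 309.8 to 1376, 1320.1 and 1369.7 (2.14 ± 0.09) and from 84.6, 122 and 133 to 489.6, 483 and 445 (2.08 ± 0.16), and the helicase subunit MCM4 by 1.31 ± 0.06. The mitotic genes AURKA, CDC25C and CDK1 fell (-1.18 ± 0.06, -0.91 ± 0.07 and -0.72 ± 0.08). CDKN1B, which encodes the CDK inhibitor p27, fell from 8802, 9100.0 and 9168 to 3966, 4199 and 4374 (-1.11 ± 0.06), and CDK6 rose (1.58 ± 0.13). CDKN1A, which encodes p21, did not pass (0.08 ± 0.07, adjusted p = 0.343), at 21471, 22854 and 22058 untreated and 24789, 21376 and 24082 treated.

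Glycolysis and hypoxia genes rose in 15 and fell in 10 of 29. The glucose transporter SLC2A1 rose from 4677, 4689 and 4554 to 20603, 17656 and 19227 (2.04 ± 0.07) and the regulators PFKFB3 and PFKFB4 by 1.83 ± 0.05 and 2.12 ± 0.11, while the hypoxia-responsive CA9 and ADM fell (-1.57 ± 0.30 and -0.86 ± 0.08). Cholesterol and fatty acid synthesis genes rose in 12, fell in 10 and did not pass in 11 of 33. These counts lie close to the shares of all tested genes, 32.1% higher and 30.7% lower, and do not set the list apart. HMGCS1, an enzyme of the sterol pathway, fell from 12852, 13903 and 13301 to 6036, 5831 and 6359 (-1.14 ± 0.06), whereas the desaturases SCD and FADS2 rose (1.25 ± 0.07 and 1.22 ± 0.08). Detoxification enzymes and transporters fell in 18 and rose in 11 of 35. The alcohol dehydrogenases ADH6 and ADH4 fell from 3158, 3441 and 3314 to 102, 74.3 and 113 (-5.11 ± 0.17) and from 361, 352 and 338 to 16.7, 11.8 and 15.9 (-4.49 ± 0.43), while the glucuronosyltransferases UGT2B7 and UGT1A1 rose (2.94 ± 0.12 and 2.04 ± 0.10).

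Among the lists with few calls were those of the ribosome and of mitochondrial DNA. Ribosomal protein genes did not pass in 22 of 25 members, with a median of -0.00499, and took 2.38% to 2.51% of counts untreated and 2.24% to 2.47% treated. Mitochondrially encoded mRNAs rose in 4 of 13 and fell in 0, at 1.76% to 1.99% untreated and 1.84% to 2.21% treated, ranges that overlap. These 2 lists depended on the setting: ribosomal members lower numbered from 0 to 6 (5 without replicate 1 or 3 of treated wild type), and mitochondrial members higher reached 8 (7 without either of those libraries).

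The response of the edited line was then set against that of wild type, which answers whether the same dose of TGFβ gave another response in the edited derivative. The test was the difference of the 2 log2 fold changes in the same limma fit, and the lines share no library. It passed for 16.6% of genes, 2163 (10.6%) with a more positive value and 1232 (6.02%) with a more negative value in the edited line. Of those calls 63.7% were more positive, a split that depended on the scaling: it was 51.5% with equal library totals and 53.4% with quantile normalization.

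Genes were ranked by this difference among those that rose or fell in the edited line with a mean of at least 100 over its 6 libraries. Genes below that mean in the edited line could not enter, whatever their level in wild type. The genes with the largest difference in this ranking included several already described. IGFL1 had 13, 20.6 and 19.3 in untreated and 3313, 3334 and 2475 in treated wild type libraries, so its log2 fold change of 7.36 ± 0.27 there lay below that of the edited line (difference 2.55 ± 0.38, adjusted p = 0.000364). ADH4 and H19, an imprinted non-coding RNA, fell less in the edited line, ADH4 from 361, 352 and 338 to 16.7, 11.8 and 15.9 against 449, 443 and 373 to 4.4, 1.92 and 0 in wild type (difference 2.91 ± 0.61). H19 started lower in the edited line, at 672, 612 and 665 against 2361, 1820.0 and 2179 in wild type, and its treated values of 66.8, 77.5 and 119 and 104, 48.9 and 42 overlapped between the lines (difference 2.20 ± 0.38). KIRREL3, an adhesion molecule of the nervous system, rose more in the edited line (difference 2.09 ± 0.52). MMP2 reached 4034, 4319.7 and 3681 in wild type, close to its treated level in the edited line, but started at 3.99, 0 and 1.07, so its fold change was smaller in the edited line (difference -2.33 ± 0.54, adjusted p = 0.00766). PAPPA2, a protease of IGF binding proteins, started at 5.98, 6.59 and 4.3 in wild type and 49.5, 57.9 and 62.9 in the edited line and ended at 214, 247 and 238 and 261, 292 and 331 (difference -2.80 ± 0.30). The transporter SLC16A6 fell further in the edited line (difference -2.18 ± 0.31), from 1049, 1255 and 1284 against 295, 362 and 386 untreated to 26.1, 22.6 and 33 against 30.8, 51.8 and 28.6. CDH12, a cadherin, went from 113, 129 and 119 to 243, 227 and 224 in the edited line and from 0, 0 and 0 to 16.5, 11.5 and 17.7 in wild type (difference -3.06 ± 0.42, against a wild type group listed at 0, so that the fitted value is no bound), and the neuropeptide VIP from 12.4, 25.7 and 19.6 to 195, 241 and 241 and from 0, 1.65 and 2.15 to 112, 115 and 132 (-2.36 ± 0.56). With a pseudocount of 10 these differences were -0.43 and -0.50 and no longer passed. The same setting gave 1.30 for ADH4, 1.31 for KIRREL3, -0.70 for MMP2 and -1.77 for PAPPA2, which still passed. COL22A1 (difference -2.65 ± 0.83), FOXS1 (2.57 ± 0.77) and R3HDML (1.95 ± 0.64) also passed, at -1.29, 1.69 and 1.01 with a pseudocount of 10, calls that ended under 11, 10 and 16 of the 23 alternatives run for each.

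SNAI1 rose more in the edited line than in wild type, by 0.62 ± 0.18 (adjusted p = 0.0279), a call that ended without replicate 1 of the untreated wild type group (adjusted p = 0.0642), replicate 3 of the untreated wild type group (adjusted p = 0.0795), replicate 2 of the treated wild type group (adjusted p = 0.0508), replicate 3 of the untreated edited group (adjusted p = 0.0704), replicate 1 of the treated edited group (adjusted p = 0.0691) or replicate 3 of the treated edited group (adjusted p = 0.063). For MIR22HG the difference of -0.27 ± 0.12 did not pass (adjusted p = 0.132, or 0.0434 without replicate 2 of untreated wild type). VIM rose more in the edited line (0.53 ± 0.12, adjusted p = 0.0074), and EPCAM fell less (0.60 ± 0.13, adjusted p = 0.00371). A difference of fold changes can come from unlike untreated levels as well as from unlike treated levels. For SNAI1, VIM and EPCAM these were not told apart here. For CDH1 the difference was -0.10 ± 0.08 (adjusted p = 0.462) and for MUC5B -0.44 ± 0.18 (adjusted p = 0.114), the latter passing with a pseudocount of 10 (0.0312) or without replicate 2 of treated wild type (0.0149).

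By list, p53 targets stood 14 of 22 more negative and 1 more positive in the edited line, against 6.02% and 10.6% of all genes. The lines differed before treatment: the list took 0.246% to 0.257% of all counts in untreated edited libraries and 0.184% to 0.196% in untreated wild type, and 0.217% to 0.221% and 0.217% to 0.218% with TGFβ. Within the edited line 10 of them rose and 8 fell. TP53I3 and TP53INP1, p53-induced genes of oxidative stress and cell death, rose in the edited line (2.06 ± 0.08 and 1.41 ± 0.08) by less than in wild type (differences -0.46 ± 0.11 and -0.60 ± 0.11), and the nuclease gene AEN fell by more (-0.54 ± 0.10). CDKN1A, which did not pass in the edited line, rose in wild type from 8677, 9722 and 8903 to 21677, 19761 and 18824, a difference of -1.06 ± 0.10 (adjusted p = 7.48e-06). Cholesterol and fatty acid genes were more positive in 14 of 33 and more negative in 0, with FADS2 (0.86 ± 0.12) and SCD (0.66 ± 0.10) among them. Their share was 0.332% to 0.354% against 0.459% to 0.485% in wild type untreated, and 0.47% to 0.491% against 0.492% to 0.54% with TGFβ. Cytokine genes were more positive in 14 and more negative in 3 of 31, with CCL2 at 1.56 ± 0.14, and their share was 0.216% to 0.233% against 0.246% to 0.27% in wild type untreated and 0.237% to 0.246% against 0.223% to 0.228% with TGFβ. Collagen processing genes were more positive in 4 and more negative in 6 of 27. SEC24D fell in the edited line and was at 4294, 5231 and 4664 and 4415, 4461 and 4892 in untreated and treated wild type (difference -1.49 ± 0.10, adjusted p = 7.65e-07). These counts of differences by list are for the main setting only. They were not rerun under other scalings, on which the split of all differences depended.

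**Figure D5:**
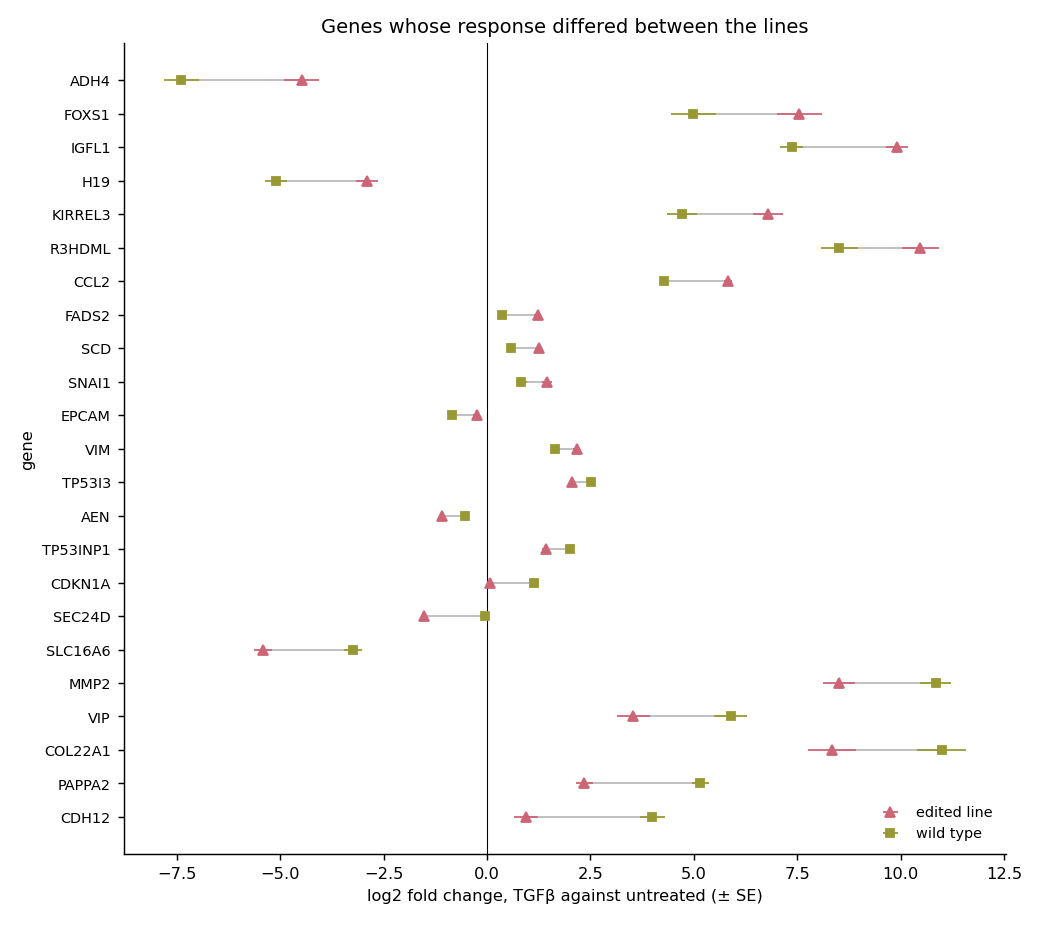
Log2 fold changes with TGFβ (± SE) of the genes named here whose response differed between the lines, triangles for the edited line and squares for wild type, ordered by the difference. Genes at the top, such as ADH4 and IGFL1, are more positive in the edited line, and those at the bottom, such as CDH12 and PAPPA2, are more negative, of which CDH12 and VIP did not pass with a pseudocount of 10.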

How the data were processed

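Total RNA libraries of 12 samples (4 groups of 3) were sequenced. The submitters' processing notes name HISAT2, StringTie, featureCounts, DESeq2 and build GRCh38.p14, with no versions or roles. The deposited table holds a normalized signal per gene, gene counts divided by 1 size factor per library by the authors, as the values show: all came out as whole reads within 0.01. Of its 58830 entries, 28 had date-like names. Values were tested with limma 3.58.1 (trend) on log2(value + 1), 4 group means, Benjamini-Hochberg adjustment at 0.05, after the filter of 10 in 3 libraries; the script was tested on simulated data. edgeR 4.0.16 and DESeq2 1.42.0 on the recovered reads, other scalings, filters, pseudocounts, a replicate block and left-out libraries were alternatives. Genes were named by rule: SNAI1, MIR22HG, markers and core EMT genes, the top 12 each way of the response and top 6 of the difference (mean of at least 100), and up to 3 members per list each way or not passed. That mean was taken over the 6 libraries of the edited line, also for the difference between the lines. Where a symbol in a list was newer than the table's, RefSeq synonyms were used. Some genes chosen in this way were left out of the text. Members and lists were chosen with earlier results of these data known. KRT8, KRT18 and KRT19 checked the cell type.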

Additional observations from a re-analysis of the deposited data

Results flagged for a closer look

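Each gene listed here drew attention because its response to TGFβ differed between the edited line and wild type by the test of that difference in limma. Values are the edited line's log2 fold change minus that of wild type. The difference was positive for ADH4 (2.91), FOXS1 (2.57), IGFL1 (2.55), H19 (2.20), KIRREL3 (2.09), R3HDML (1.95), CCL2 (1.56), FADS2 (0.86), SCD (0.66), SNAI1 (0.62), EPCAM (0.60) and VIM (0.53). It was negative for CDH12 (-3.06), PAPPA2 (-2.80), COL22A1 (-2.65), VIP (-2.36), MMP2 (-2.33), SLC16A6 (-2.18), SEC24D (-1.49), CDKN1A (-1.06), TP53INP1 (-0.60), AEN (-0.54) and TP53I3 (-0.46). These are the called differences the text gives, out of 3395 called over all tested genes, and their causes were not tested. The values of CDH12, VIP, MMP2, ADH4, COL22A1 and R3HDML shrank most with a pseudocount of 10, where CDH12 and VIP no longer passed.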

How the results depend on the processing

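In all 179 alternatives run, counts of called genes and counts at the edges of detection stayed within 1.5 times, and ratios of summed list levels within 1 SD. The only alternative run for a ratio left mitochondrially encoded genes out of the total. Their mRNAs took a mean of 1.84% of counts untreated and 1.96% treated, so a ratio could hardly move and was not tested by it. Counts at the edges of detection had 1 alternative each. The counts of list members called in the response of the edited line were more sensitive. Of 1728 alternatives, 49 moved one by over 1.5 times, touching 9 lists, mostly counts of 1 or 2 members and the ribosomal list. Counts of differences by list were not rerun. Leaving out 1 of the 12 libraries gave 6115 to 6737 genes higher and 5762 to 6522 lower in the edited line, and 1553 to 2611 more positive and 871 to 1673 more negative differences. On the whole reads recovered from the deposited values, edgeR called 6280 higher and 6523 lower (1957 and 1448 differences), and DESeq2 6642 and 6324 (2602 and 1606). Of 4390 single-gene alternatives in the edited line, 24 ended a call (COL4A6, EGFL7, EPCAM, ID1, KRT18, KRT19, TCF21) and 0 reversed a direction. For the differences named, 45 of 598 ended a call, 3 made one and 0 reversed a direction. Scaling to equal totals moved the median of all genes from 0.03 to -0.04. A fit with the replicate number as a block called 6667 higher and 6429 lower, and 2527 and 1460 differences. The labels do not say whether same-numbered libraries shared a day or passage. In the edited line the deviations of same-numbered libraries from their group means correlated at 0.06, -0.02 and 0.09. With 3 libraries a group these values cannot decide whether the libraries were paired. Genes with few reads are limited by counting error, and their fitted fold changes depend on the pseudocount.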

Other observations

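Targets of YAP and TEAD, the effectors of the Hippo pathway, moved both ways in the edited line, with 9 of 24 tested members higher and 10 lower with TGFβ. Over all tested genes 32.1% were higher and 30.7% lower, so these counts alone do not set the list apart. ANKRD1 fell from 823, 999.7 and 890.1 to 144, 145 and 108 (-2.77 ± 0.15 on the log2 scale), AMOTL2 fell (-1.51 ± 0.06), and MYOF, a membrane repair gene, fell as well (-1.39 ± 0.09). CTGF, a member of the same list, rose, so ANKRD1 and CTGF moved in opposite directions in the same libraries. IGFBP3 did not pass in the edited line (-0.04 ± 0.09, adjusted p = 0.739), at 83115, 78479 and 82616 untreated and 80792, 80009 and 77316 treated.

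Genes of the lung alveolus rose in 4 and fell in 3 of 10 tested members, beside 32.1% and 30.7% of all tested genes. The surfactant lipid transporter ABCA3 rose from 748, 771 and 714 to 1997, 1712 and 1961 (1.34 ± 0.08) and the surfactant lipid enzyme LPCAT1 from 8526, 7774 and 8383 to 18203, 16178 and 18456 (1.10 ± 0.07), while LAMP3, a lysosomal protein of alveolar type II cells, fell from 603, 794 and 670.2 to 356, 353 and 355 (-0.95 ± 0.11). The cyclin D1 gene CCND1 did not pass (0.10 ± 0.06, adjusted p = 0.141), at 36706, 38368 and 36863 untreated and 39949.9, 38840.4 and 41006 treated.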
